A study of Mus musculus with 23 samples.

Results

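The ephrins are 8 genes, 5 of class A (Efna1 to Efna5) and 3 of class B (Efnb1 to Efnb3), chosen by symbol as the ligands of Epha4 and the other Eph receptors, and they make up 8 of the 34682 genes in the table analysed. PolyA RNA was sequenced from the distal forelimb buds of E11.5 mouse embryos. The embryos carried Inv1DelCTCF (2 libraries), by its name the first inversion together with a deleted CTCF binding site, or the first inversion alone, Inv1 (3 libraries). Both groups therefore carry the inversion, one of the rearrangements made with CRISPR/Cas9 to move enhancers away from Epha4 into a gene-dense region, and the comparison asks what the loss of the CTCF site adds to it. The labels of both groups name G4 ESC as the cell type, the series' design text calls the samples biological replicates, and neither gives a litter, clone or number of pooled embryos. The ephrins were not analysed here against wild type, in the other inversions or in embryonic stem cells.

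Ephrins are bound to the cell surface, class A by a lipid anchor and class B by a membrane-spanning segment with a short cytoplasmic tail. They bind Eph receptor tyrosine kinases on neighbouring cells, and a signal can run into the receptor cell (forward) and into the ligand cell (reverse). In general A ligands bind EphA receptors and B ligands EphB receptors, while EphA4 binds ligands of both classes. In the limb bud, ephrins and Ephs sort cells, guide motor axons into dorsal or ventral muscle territory and mark arterial against venous endothelium.

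The libraries look like forelimb by their markers. All 14 limb mesenchyme markers were detected, Tbx5, the forelimb T-box gene, had a mean normalised count of 7273 over the 5 libraries in the authors' deposited table, and the hindlimb regulators Tbx4 and Pitx1 had 642 and 19.2. The mean normalised counts of all genes add up to 3.02e+07, and the depth of single libraries is unknown, because the table holds group comparisons and no value per library. Group levels given below were rebuilt from the mean over the 5 libraries and the log2 change. All 8 ephrins had an adjusted p, which the table gives for 11218 genes, none with a mean under 113.

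All 8 ephrins were expressed, at very unequal levels. Per kilobase of the longest annotated transcript, Efnb1 had the highest level, 1299 normalised counts, followed by Efna4 with 1093, Efnb3 with 949, Efna2 with 912, Efna1 with 642, Efnb2 with 609, Efna5 with 359.9 and Efna3 with 66.4. Efna3 stood apart, at the 9.81th percentile of the genes with an adjusted p, while Efnb1 was at the 85.4th. The levels of Efnb3 and Efna2 differed by 0.952 of their combined SE and those of Efna1 and Efnb2 by 1.19, so neither pair can be ordered, whereas every other step down the order was at least 3.89 combined SE. These SE come from the spread and counting error implied by the authors' SE and do not cover the choice of transcript length, on which the order depends. Per kilobase of coding length Efnb1 (4090.5) and Efna3 (228) were again highest and lowest, but Efna2 (3100.1), Efnb3 (2960.1) and Efnb2 (2897) came before Efna4 (2829), and Efna5 (2122) before Efna1 (1705). The longest stretch of identical bases shared by transcripts of any 2 ephrins was 23 bases (Efna2 and Efna3).

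**Figure D1:**
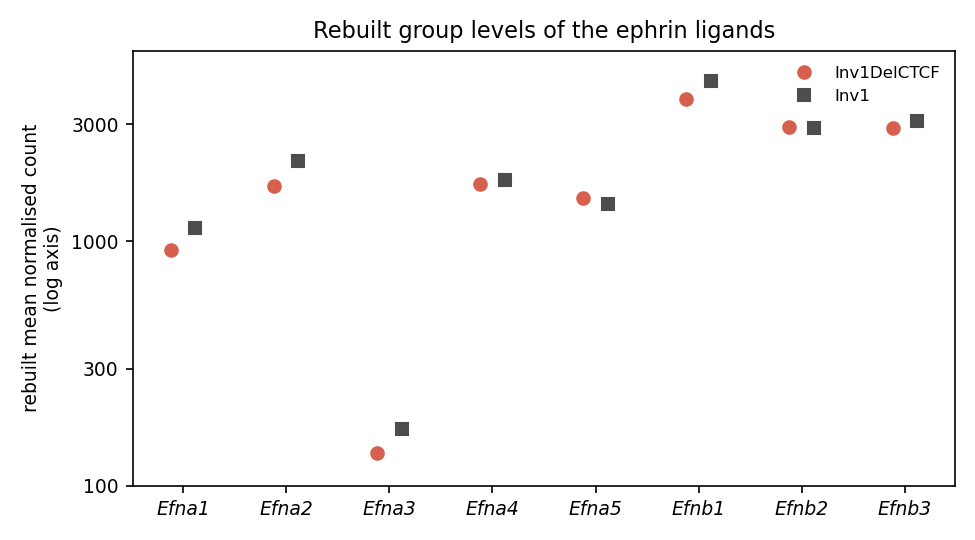
Rebuilt mean normalised count of each ephrin (log axis) in Inv1DelCTCF (red circles, 2 libraries) and Inv1 (grey squares, 3 libraries). No error is drawn because the table holds no value per library; 6 of the 8 genes lie lower in Inv1DelCTCF, and Efna3 lies far below the others in both groups.

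Efna1 and Efna2, both class A ligands, fell in Inv1DelCTCF by about as much as each other, and no ephrin rose. Efna1, the preferred ligand of EphA2 and first known from endothelium, was at 919 normalised counts in Inv1DelCTCF and 1134 in Inv1, a fold of 0.810 (95% interval 0.708 to 0.927). Efna2, a ligand known for guiding retinal axons, was at 1684 in Inv1DelCTCF and 2117 in Inv1, a fold of 0.795 (0.696 to 0.909). In the authors' deposited table, with its sign reversed so that negative values mean lower in Inv1DelCTCF, the log2 change was -0.30 for Efna1 (adjusted p = 0.0269, SE 0.099) and -0.33 for Efna2 (adjusted p = 0.0133, SE 0.098). Across the genome 7.89% of genes with an adjusted p fell and 3.81% rose, so 2 of 8 stands against a background in which falls were the more common call. Neither call held once a trend of the log2 change with transcript GC content and length was subtracted (described below) or the median of 200 genes of like GC content, at an adjusted p under 0.01, with the Wald scores scaled by their own spread over all genes, or when tested against a log2 change of 0.25, and that of Efna1 was also lost when p was adjusted over every gene with a p-value (adjusted p = 0.0516).

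The starts of these 2 genes are shown because they are the only ephrins called. Each sequence is the 250 bases before an annotated RefSeq start (build GRCm38.p6), read 5′ to 3′ on the strand of the gene, with each GGGCGG, on either strand (CCGCCC on the other), in capitals. Efna1 has 2 annotated starts, at chr3:89280952-89281201 (minus strand, the first below) and chr3:89279646-89279895 (minus strand, the second), and Efna2 has 1, at chr10:80179232-80179481 (plus strand).
Efna1 first start: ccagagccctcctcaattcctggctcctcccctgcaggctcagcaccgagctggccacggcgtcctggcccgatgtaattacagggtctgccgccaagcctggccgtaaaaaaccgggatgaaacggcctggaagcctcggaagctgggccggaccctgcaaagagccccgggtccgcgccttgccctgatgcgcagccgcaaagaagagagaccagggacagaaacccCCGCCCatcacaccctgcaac
Efna1 second start: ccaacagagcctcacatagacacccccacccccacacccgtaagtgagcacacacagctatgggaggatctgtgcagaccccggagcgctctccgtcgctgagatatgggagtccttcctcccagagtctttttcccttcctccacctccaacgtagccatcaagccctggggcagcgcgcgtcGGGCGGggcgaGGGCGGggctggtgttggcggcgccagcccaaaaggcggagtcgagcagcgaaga
Efna2: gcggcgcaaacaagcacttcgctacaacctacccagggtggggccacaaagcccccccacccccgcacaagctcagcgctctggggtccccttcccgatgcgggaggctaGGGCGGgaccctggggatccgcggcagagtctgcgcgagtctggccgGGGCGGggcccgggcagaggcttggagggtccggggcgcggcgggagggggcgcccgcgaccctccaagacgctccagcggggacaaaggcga

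All 3 windows hold GGGCGG, the letters of the GC box of Sp-family factors, against 32.7% of 32851 promoter windows of the same length. None of the 3 holds CCAAT on either strand, which 33.8% of all windows do. The motif does not set these genes apart within the family: 7 of the 9 ephrin windows in the table hold it, among them that of Efna5 with 4 copies, and Efna5 was not called. The 3 windows hold 16, 18 and 25 CG dinucleotides, against a median of 6 over all windows. At least as many are held by 25.4%, 21.7% and 10.7% of all windows. Ephrins that were not called reach higher counts, with 27 in Efnb2, 31 in 1 window of Efna3 and 32 in Efna5. These matches describe letters only.

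The other class A ligands did not pass the test. Efna3, known from neurons and astrocytes, was at 136 normalised counts in Inv1DelCTCF and 171 in Inv1. Its log2 change of -0.32 in the authors' deposited table was as large as those of Efna1 and Efna2, but with its SE of 0.224 only a change of at least 0.62 could have been called (adjusted p = 0.366). Efna4, a gene mutated in human craniosynostosis, was at 1704 in Inv1DelCTCF and 1777 in Inv1 (in the authors' deposited table, log2 change -0.06 with adjusted p = 0.672 and a 95% interval of -0.22 to 0.10). Efna5, a repellent ligand for limb-innervating motor axons that carry EphA4, was at 1498 in Inv1DelCTCF and 1420 in Inv1 (in the authors' deposited table, log2 change 0.08 with adjusted p = 0.651 and an interval of -0.11 to 0.27). The intervals of Efna4 and Efna5 reach no lower than -0.22 and -0.11 on the log2 scale. In the annotation Efna4 overlaps the antisense gene 4731419I09Rik (mean normalised count 73.7), Efna3 the antisense gene Gm15998, and Efnb2, on its own strand, the genes E230020D15Rik, Gm45074 and Gm45073. The sources used here do not say that counting used strand, so reads of antisense partners cannot be told apart.

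Among the class B ligands Efnb1 came nearest to a call. Efnb1, the X-linked gene of human craniofrontonasal syndrome, was at 3795 normalised counts in Inv1DelCTCF and 4526 in Inv1, a fold of 0.838 (95% interval 0.734 to 0.958), and in the authors' deposited table its log2 change was -0.25 (adjusted p = 0.0691, SE 0.098). Its interval excludes 0, but its adjusted p did not pass. Efnb2, the ligand that marks arterial endothelium, was at 2939 in Inv1DelCTCF and 2907 in Inv1 (in the authors' deposited table, log2 change 0.02 with adjusted p = 0.934 and an interval of -0.15 to 0.19). Efnb3, a midline guidance ligand that acts through EphA4 in the spinal cord, was at 2909 in Inv1DelCTCF and 3093 in Inv1 (in the authors' deposited table, log2 change -0.09 with adjusted p = 0.447 and an interval of -0.23 to 0.05). The intervals of all 3 class B ligands overlap, and those of Efnb2 and Efnb3 reach no lower than a log2 change of -0.23.

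As a family, 2 ephrins fell, none rose and 6 were not called by the Wald test of the authors' DESeq2 fit. The unadjusted p was under 0.05 for 3 of 8 (Efna1, Efna2 and Efnb1), beside 2928 of the 11218 genes with an adjusted p. The median log2 change was -0.17, beside -0.01 over all 11218 genes. Of the 8 values 6 were negative, beside 5962 of the 11218. The spread between libraries implied by the SE was a coefficient of variation of 5.09% for Efnb3 to 14.9% for Efna3, with a median of 6.85%, beside 6.74% over all genes. Counting error made up between 4.42% (Efnb1) and 23.3% (Efna3) of the variance, so for every member most of the error came from the spread between libraries and not from depth. These values are approximate, since DESeq2 moves each gene's spread toward that of genes of like level.

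**Figure D2:**
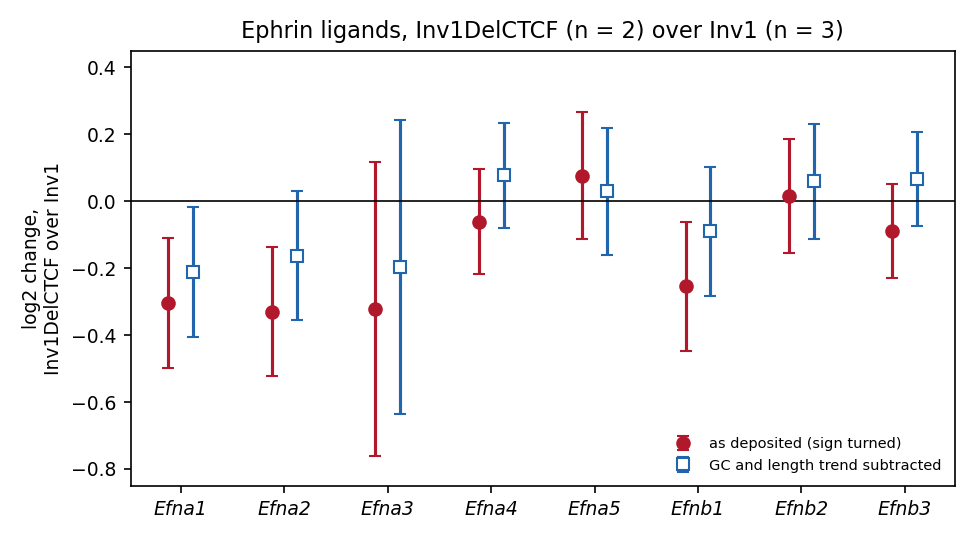
Log2 change of each ephrin, Inv1DelCTCF over Inv1, with 95% intervals from the authors' SE, as deposited with the sign turned (red circles) and after a trend with transcript GC content and length was subtracted (open blue squares). Before subtraction Efna1, Efna2 and Efnb1 lie below 0 with their whole interval; after it only Efna1 does.

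Transcript GC content moved with the log2 change across the whole table. Over 10945 genes the Spearman correlation was -0.517. The median log2 change was 0.08 for genes of 40 to 45% GC, 0.02 for 45 to 50%, -0.06 for 50 to 55% and -0.14 for 55 to 60%, and the share of genes that fell was 1.10%, 3.47%, 9.65% and 17.9% in the same steps. Most ephrins lie at the high end: Efna2 (58.5%), Efnb1 (58.2%), Efnb3 (57.7%), Efna4 (56.8%) and Efna3 (56.1%) in the step of 55 to 60%, Efna1 (54.2%) and Efnb2 (50.4%) below it, and Efna5 at 44.8%. The 2 ephrins with the lowest GC content, Efna5 and Efnb2, are the 2 whose log2 change was not negative. Over the 8 ephrins, which share the same 5 libraries, the Spearman correlation was -0.643, given as a description.

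With that trend subtracted, none of the 8 ephrins was called, against 3.65% of all genes (1.64% lower, 2.01% higher). The unadjusted p was under 0.05 for 1 of them, Efna1, beside 1814 of 10945 genes. Their median log2 change was -0.03. Efna1 had a log2 change of -0.21 (adjusted p = 0.243) and Efna2 one of -0.16 (adjusted p = 0.411), from the authors' deposited table less the trend. Efnb1 was at -0.09 and Efna3 at -0.20, and the signs of Efna4 (0.08) and Efnb3 (0.07) turned. Of the 2 called ephrins, Efna1 lay farther from the trend, which is -0.09 at its GC content and length and -0.17 at those of Efna2. Subtracting a trend also removes any true change shared by genes of like GC content, and these cannot be told apart without values per library.

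**Figure D3:**
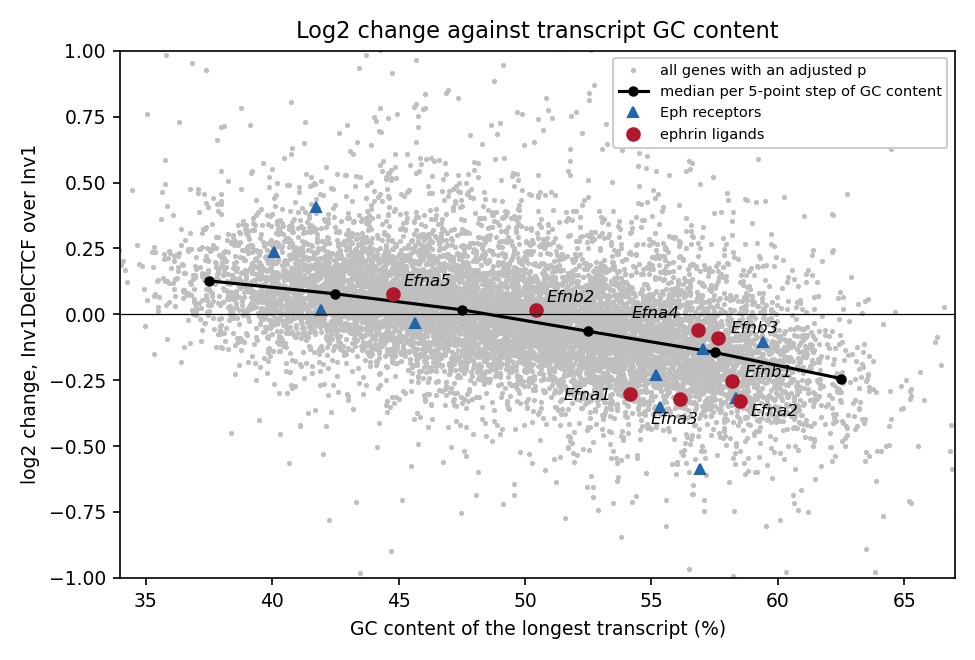
Log2 change (Inv1DelCTCF over Inv1) against the GC content of the longest transcript for genes with an adjusted p (grey; the few beyond the axes are not drawn), with the median in steps of GC content (black line), Eph receptors (blue triangles) and ephrins (red, named). The medians run from 0.13 at 35 to 40% down to -0.24 at 60 to 65%, and Efna5 and Efnb2 sit above 0 at lower GC content than the other ephrins.

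The genes on either side of the 2 called ephrins were not called. Efna1, Efna3 and Efna4 lie together on chromosome 3, with no other gene that has an adjusted p between them, and the authors' deposited table puts their log2 changes at -0.30, -0.32 and -0.06. Beyond the cluster, Slc50a1 next to Efna1 was at 0.20 (SE 0.120) and Adam15 next to Efna4 at -0.20 (SE 0.138) in the authors' deposited table, neither of them called. Next to Efna2, Cirbp was at -0.06 (SE 0.111) and Mum1 at -0.07 (SE 0.078) in the authors' deposited table. Flanking here means the nearest gene on a side with an adjusted p, which can lie as far as the 20th annotated gene (Shcbp1 from Efnb2). Of 12 such flanking genes 2 were called, against 11.7% of all genes: in the authors' deposited table Arglu1 beside Efnb2 rose by 0.25 (adjusted p = 0.000504, SE 0.055) and Kdm6b, the 3rd gene from Efnb3, fell by 0.32 (adjusted p = 0.0310, SE 0.108). Neither of these was called after the GC and length trend was subtracted.

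Of the 14 Eph receptors, 10 had an adjusted p, 3 of these fell and none rose, against the same 7.89% of all genes that fell. Ephb4, the venous receptor of ephrin-B2, was at 7790 normalised counts in Inv1DelCTCF and 9702 in Inv1, and in the authors' deposited table its log2 change was -0.32 (adjusted p = 7.80e-05, SE 0.063). Ephb2, a receptor of B ligands, was at 3179 in Inv1DelCTCF and 4052 in Inv1 (in the authors' deposited table -0.35, adjusted p = 0.00550, SE 0.095). Epha2, the receptor of ephrin-A1, was at 482 in Inv1DelCTCF and 725 in Inv1 (in the authors' deposited table -0.59, adjusted p = 0.0143, SE 0.176). Epha4 itself, at 6506 in Inv1DelCTCF and 6652 in Inv1, was at -0.03 in the authors' deposited table (adjusted p = 0.758, SE 0.055). In the authors' deposited table the remaining receptors with an adjusted p were not called, at log2 changes from -0.23 (Epha1) over -0.13 (Ephb3), -0.11 (Ephb6), 0.02 (Epha3) and 0.24 (Epha5) to 0.41 (Epha7). Epha6, Epha8, Epha10 and Ephb1 had no adjusted p, with mean normalised counts from 0.213 (Epha10) to 89.1 (Epha8).

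Efna1 and its receptor gene Epha2 were thus both called, as was Efna2, while the class A ligands Efna3, Efna4 and Efna5 were not. Ephb4 was called and its ligand Efnb2 was not. After the GC and length trend was subtracted no receptor was called, with adjusted p values of 0.200 for Ephb4, 0.292 for Ephb2 and 0.149 for Epha2. The unadjusted p was then under 0.05 for 3 of 10 receptors, beside 1814 of 10945 genes.

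Of 32 genes that carry the signal onward, 29 had an adjusted p, 5 fell and none rose, against 7.89% of all genes that fell and 3.81% that rose. Src (log2 change -0.24), Abl1 (-0.20) and Abl2 (-0.18), tyrosine kinases, fell in the authors' deposited table, as did Nck2 (-0.31), an adaptor that binds the tail of B ligands, and Cbl (-0.27), a ubiquitin ligase that removes receptors. Adam10, the protease that sheds A ligands, was at 0.01 (SE 0.062), and Sdcbp, the syntenin that docks on the B ligand tail, was at 0.07 (SE 0.066) in the authors' deposited table. After the trend was subtracted no gene of this list was called, and 2 of 29 had an unadjusted p under 0.05, beside 1814 of 10945 genes. The median of the list before subtraction was -0.08, against -0.17 for the ephrins and -0.12 for the receptors.

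**Figure D4:**
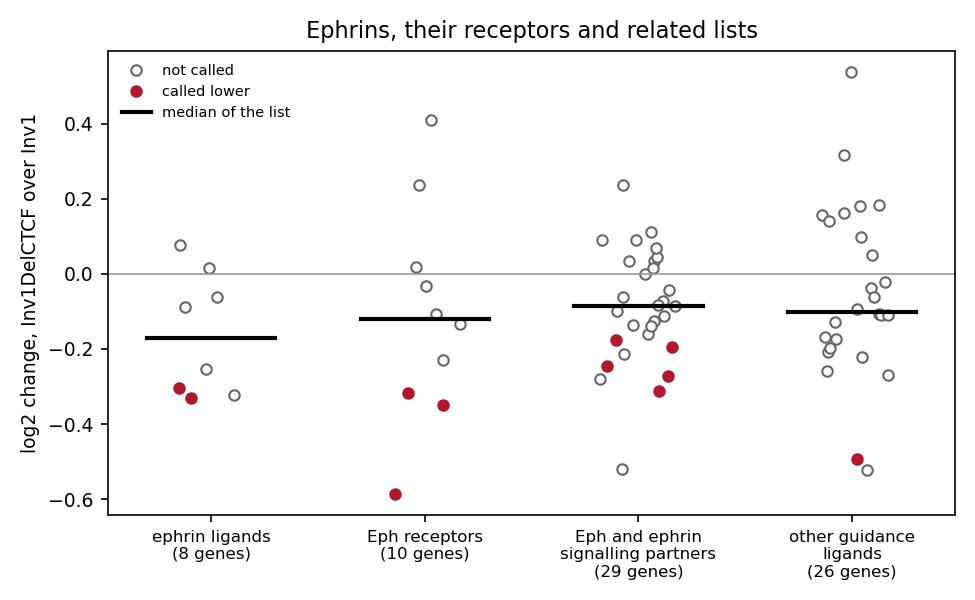
Log2 change (Inv1DelCTCF over Inv1) of each gene with an adjusted p in 4 lists, called genes filled in red, with the median of each list as a bar. The medians are -0.17 for ephrins, -0.12 for Eph receptors, -0.08 for signalling partners and -0.10 for other guidance ligands, and the called genes all lie below 0.

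Summed levels of cell type markers lay on both sides of equality between the groups. Summed rebuilt levels in Inv1DelCTCF over Inv1 had a ratio of 0.996 for the 14 limb mesenchyme markers, 0.897 for the 12 endothelial markers (10641 and 11859 normalised counts), a cell type that expresses Efnb2 and Efna1, and 0.844 for the 12 surface ectoderm markers (11896 and 14091). The ratio was 0.940 for the 8 erythroid markers, of which 3 were at 0, and 1.06 for the 6 muscle precursor markers, none at 0. It was 1.18 for the 9 macrophage marker symbols. Of these, 2 were at 0, Adgre1 and Emr1, which are 2 symbols of 1 gene. None of the endothelial or ectodermal markers was at 0. Of the mesenchyme list 3 of 14 fell, Hoxa13, Hoxd12 and Lhx2. Its log2 changes were negative for 8 of 14 markers, beside 5962 of 11218 genes, and its summed level does not show the 2 largest. Msx1 was at -0.99 (adjusted p = 0.103) and Grem1 at -0.90 (adjusted p = 0.125) in the authors' deposited table. Neither was called, and the spread implied by their SE was a coefficient of variation of 31.6% for Msx1 and 30.1% for Grem1. Of the endothelial list 1 of 12 fell, Cdh5, and of the ectodermal list 4 of 12 fell, Krt5, Krt8, Krt18 and Cdh1, against 7.89% of all genes. In the ectodermal list 11 of 12 log2 changes were negative, and Krt15 went the other way. In the authors' deposited table Krt15 was at 0.77 (adjusted p = 0.0757, SE 0.305) and Fgf8 at -1.20 (adjusted p = 0.188, SE 0.609), neither of them called. After the GC and length trend was subtracted no marker of these 3 lists was called. The unadjusted p was then under 0.05 for 6 of 14 mesenchyme, 1 of 12 endothelial and 6 of 12 ectodermal markers. Over all genes it was under 0.05 for 1814 of 10945. Among the markers under 0.05, Pdgfra (log2 change 0.17) and Krt15 (0.88) were higher in Inv1DelCTCF. The part of these markers in the falls of Efna1 and Efna2 was not tested, and in bulk tissue fewer cells of a type and less RNA per cell cannot be told apart.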

How the data were processed

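The authors' deposited table gives, per the file headers, each gene's mean normalised count (a signal averaged over the 5 libraries of the fit), log2 fold change with its SE, Wald score, p-value and adjusted p-value. The submitters' processing notes list STAR, DESeq2 and build mm9; versions are not given in the sources used here. Per the labels' protocols, RNA was purified with RNeasy and prepared by a standard Illumina method.

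The headers do not name the numerator. Inv1 levels of 49 genes (mean of 300 or more) were rebuilt through the tables against wild type. The median absolute residual was 0.0124 (log2) if positive deposited values mean higher in Inv1 and at least 0.107 under the other 3 readings, so the sign was reversed. A gene was called at an adjusted p under 0.05, which the authors' fit gives for 11218 of the 21940 genes with a p-value.

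Transcript GC content and length, from the longest transcript per gene in GENCODE (GRCm38), were found for 97.6% of genes with an adjusted p and 97.3% of called genes. A weighted least-squares trend on both was subtracted, with normal p and Benjamini-Hochberg adjustment. Steps across genes were tried on simulated data with independent normal noise of the authors' SE. The Wald scores of the real data had a robust SD of 1.76, so those runs do not vouch for the calls. Members and lists were chosen with earlier results of these data known. The text names all ephrins and Eph receptors, called partners and guidance ligands, up to 2 markers per list by adjusted p, and the nearest flanking genes with an adjusted p. Outside that rule, Adam10, Sdcbp, Tbx5, Pitx1, Hoxa13, Msx1, Grem1, Pdgfra, Krt8, Krt15, Krt18 and Fgf8 were chosen after their values were seen. A further marker list is not reported here. RefSeq promoter windows were found for 7 of the 8 ephrins. Tools were matplotlib 3.10.9, SciPy 1.17.1, numpy 2.4.6, pandas 2.3.3 and Python 3.11.15.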

Additional observations from a re-analysis of the deposited data

How the results depend on the processing

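The counts of called ephrins, Eph receptors, signalling partners and other guidance ligands were 2, 3, 5 and 1, and 1312 over all genes. At an adjusted p under 0.01 they were 0, 2, 1 and 1, and 576 over all genes. Under 0.1 they were 3, 3, 7 and 5 (4 of the 5 guidance ligands lower and 1 higher), and 1954 over all genes. With p adjusted over every row with a p-value, they were 1 (Efna2), 3, 3 and 1, and 922 over all genes. With the GC and length trend subtracted 0 genes of each of the 4 lists and 400 of all genes were called, and likewise 0 of each list with Wald scores over their robust SD (12 of all genes) and against a log2 change of 0.25 (10 of all genes). Subtracting the median of 200 genes of like GC content, an alternative chosen after seeing the data, gave 0 ephrins, 0 receptors, 1 partner, 0 other guidance ligands and 440 of all genes. Unadjusted p values under 0.05 among the ephrins numbered 3 in the authors' DESeq2 fit, 1 after the trend, and 0 with the robust SD, against 0.25 and with the GC median; in the other 3 lists they numbered 3, 2 and 4 after the trend, 2, 1 and 1 with the robust SD, 0 against 0.25, and 3, 5 and 3 with the GC median. Over all genes such p values numbered 2928 in the authors' DESeq2 fit, 1814 after the trend and 591 with the robust SD. They numbered 169 against 0.25 and 1842 with the GC median. Of all calls, 885 were lower and 427 higher, against 180 and 220 after the trend, 228 and 212 after the GC median, 737 and 499 when centred on the median, 5 and 7 with the robust SD, and 4 and 6 against 0.25. The sign turned for Efna4 (to 0.077 with the trend and 0.078 with the GC median) and Efnb3 (to 0.067 and 0.057), none of these values past the threshold. Efnb1 passed at 0.1. Of 72 ephrin values under alternatives, 56 kept their direction and side of the threshold, most of them from genes that were not called to begin with. For the 2 called ephrins, the call was kept under 3 alternatives and lost under 6 for Efna1, and kept under 4 and lost under 5 for Efna2. The direction residual was 0.0161 with a minimum mean of 100 and 0.0176 with 20. The highest over the lowest ephrin level was 19.6-fold per kilobase and 17.98-fold per kilobase of coding length. No paired analysis was possible because the files hold no value per library, and for the same reason no library could be left out.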

Other observations

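Of 29 semaphorin, slit, netrin and other guidance ligand genes, 26 had an adjusted p, and 1 fell, against 7.89% of all genes. It was Sema4d, a semaphorin that acts through plexin-B1. In the authors' deposited table its log2 change was -0.49 (adjusted p = 0.00484, SE 0.131), and after the GC and length trend it was -0.40 (adjusted p = 0.0557). The list had a median log2 change of -0.10, and one of 0.03 after the trend. Its median GC content was 56.6%, beside 56.5% for the ephrins.

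No macrophage marker was called in the authors' deposited table, where Csf1r, a macrophage receptor gene, was at a log2 change of 0.42 (adjusted p = 0.0708, SE 0.164). After the trend Csf1r was called (0.53, adjusted p = 0.0393). Of the 5 erythroid markers with an adjusted p, 2 embryonic globins fell: in the authors' deposited table Hba-x was at -0.44 (adjusted p = 0.000823, SE 0.102) and Hbb-bh1 at -0.28 (adjusted p = 0.0360, SE 0.097). Both were also called after the trend (adjusted p = 0.0417 and 0.0312).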
